A study of Rattus norvegicus with 14 samples.

Results

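Store-operated and TRPC calcium entry was followed through 8 genes, the calcium sensors Stim1 and Stim2, the pore subunits Orai1, Orai2 and Orai3, and the cation channels Trpc1, Trpc4 and Trpc6. They were chosen by name, and every probe set annotated to exactly 1 of these symbols was taken, which gave 11 probe sets for the 8 genes out of 31042 probe sets and 14217 named genes in all. A gene with several probe sets was represented by the one with the highest mean over all arrays. RNA came from thoracic aortas of Sprague-Dawley rats, 8 samples labelled A-CRF, in which chronic renal failure was induced with adenine, and 6 labelled Control, each on its own 1-colour array. Adenine dose, time of sampling and age of the rats are not stated in the labels. Nor do the labels say whether samples came from different rats, so the p-values rest on sample-to-sample spread that may be partly technical.

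When calcium leaves the sarcoplasmic reticulum, STIM proteins in its membrane sense the loss, cluster next to the plasma membrane and open channels built from ORAI subunits, which refill the store. TRPC channels admit calcium and sodium after receptors activate phospholipase C, and some of them also take part in entry after store depletion. In vascular smooth muscle these routes add to calcium entry through voltage-gated channels, and STIM1 and ORAI1 are known to increase when the cells leave the contractile state.

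In A-CRF aortas Trpc4 was higher and Stim1 was lower, and the other 6 genes did not pass the test. Trpc4 rose by 0.30 log2 units from a control level near background, for which no fold is given, and Stim1 fell 1.17-fold. The Stim1 call was fragile and held in only 5 of 14 fits that left out 1 array, while that of Trpc4 held in all 14. The 2 calls among 8 genes stand beside 2.99% of all named genes that passed the same test (limma over all probe sets, Benjamini-Hochberg adjusted p under 0.05), 1.93% higher and 1.06% lower. The 8 genes had a median difference of -0.05 log2 units, A-CRF minus Control, against -0.0012 over all named genes, and 6 of the 8 were on the lower side against 51.2% of named genes.

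The values are log2 probe set summaries with no detection call, so a level was set against the lowest value in the table, 4.82. A gene was counted as above the array floor where its group mean lay over 1 log2 unit higher than that, at 5.82, which 57.1% of named genes did in Control. Stim1, Stim2, Orai2, Orai3 and Trpc1 were above that bound in both groups. Orai1, Trpc4 and Trpc6 were below it in both. With a bound 0.5 log2 units above the lowest value, 7 genes were above it, all but Trpc6. Levels of different probe sets cannot be ordered against each other, because each binds its target with its own strength.

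**Figure D1:**
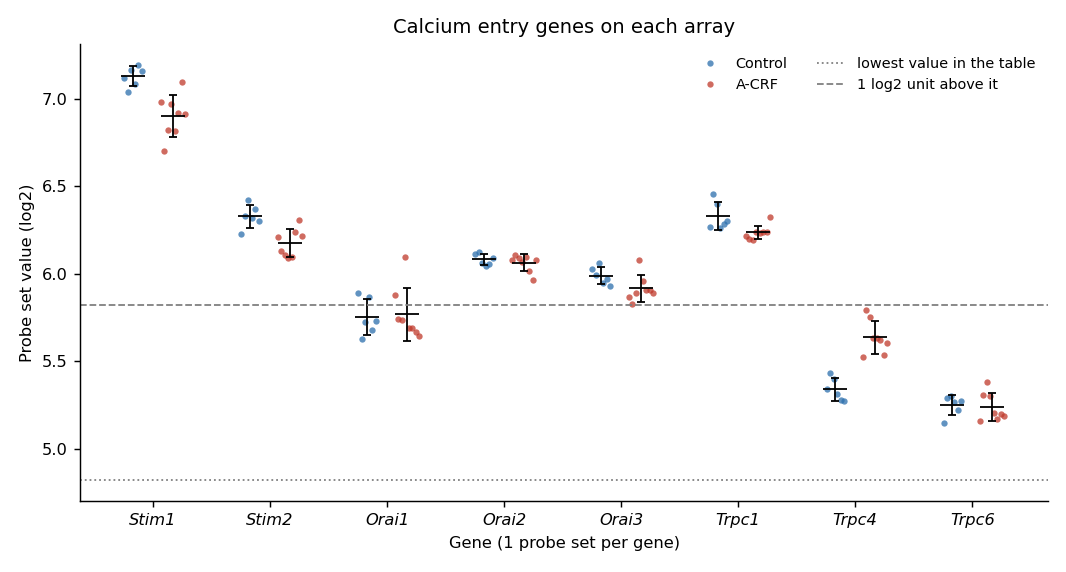
Values of the 8 genes (log2, vertical axis) on each of 6 Control and 8 A-CRF arrays, with 1 probe set per gene, horizontal bars at the group means and error bars of 1 SD. The dotted line is the lowest value in the table and the dashed line lies 1 log2 unit above it; the Trpc4 points of the groups do not overlap, and the Stim1 points overlap on 1 A-CRF array.

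All 8 smooth muscle markers, Acta2 and Myh11 among them, were above the floor bound, with control means of 7.17 to 11.90. Correlations between arrays over all probe sets were 0.970 to 0.997. The difference between the GAPDH 3' and 5' probe sets, which grows as transcripts shorten, was 1.90, 1.63 and 1.58 log2 units on A-CRF 1, A-CRF 4 and Control 1 and 0.37 to 0.55 elsewhere. Of 13 macrophage markers 8 passed and were higher, and their list means did not overlap (7.01 to 7.39 in A-CRF, 6.68 to 6.83 in Control). White adipocyte list means were 6.86 to 8.30 and 7.78 to 8.42 (0 of 7 passed). A clock gene score, the mean of Dbp, the Per genes and others that peak with them minus that of genes of opposite phase such as Npas2, was -0.49 to 0.02 on 5 A-CRF arrays, 1.06 to 1.14 on A-CRF 6, A-CRF 7 and A-CRF 8, and -0.0035 to 1.10 in Control (exact permutation test, two-sided, p = 0.14). Endothelial list means overlapped (6.47 to 6.70 against 6.45 to 6.63, 0 of 9 passed). Smooth muscle list means were 9.28 to 9.77 in A-CRF and 9.54 to 10.17 in Control, with a median difference of -0.25 log2 units over the 8 markers. Of these 7 had a negative difference, and Myh11 (-0.29, limma adjusted p = 0.043) passed. Cnn1 (-0.42, 0.13), Lmod1 (-0.29, 0.39) and Tagln (-0.26, 0.059, every A-CRF array below every control array) did not. Nor did Smtn (-0.23, 0.63), Myocd (-0.16, 0.83), Acta2 (-0.08, 0.86) or Des (0.03, 0.97). Of 8 T cell markers 6 were below the floor bound in Control, Cd3d at 5.36 and Cd3g at 5.31 among them. Cd3e (6.49) and Cd8a (6.04) were above it. All 3 B cell, 5 mast cell and 4 neutrophil markers were below the bound. In whole tissue, fewer cells of a type and less RNA per cell cannot be told apart, and the part of these cell types in the results below was not tested.

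Stim1, the main sensor of store depletion, had a lowest value of 6.70, a median of 6.92 and a highest of 7.09 in A-CRF. In Control the lowest was 7.04, the median 7.14 and the highest 7.20. The groups overlapped by A-CRF 7, and the other 7 A-CRF arrays lay below every control array. The difference was -0.22 ± 0.05 log2 units (SE, 95% confidence interval -0.33 to -0.12), between means of 6.90 ± 0.12 (SD, n = 8) and 7.13 ± 0.06 (SD, n = 6), with a limma adjusted p of 0.036. This places the A-CRF level 14.4% under the control level. The smooth muscle markers had a median difference of similar size, -0.25, with single markers from -0.42 (Cnn1) to 0.03 (Des). Their part in the Stim1 and Stim2 differences was not tested.

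Stim1 had 2 further probe sets. Probe set 1376024_at, above the floor, gave the same difference, -0.23 ± 0.06 (SE), with 7 of 8 A-CRF arrays below the control range of 6.97 to 7.19, but did not pass (adjusted p = 0.076). Probe set 1394595_at, below the floor bound at 5.61 in Control, gave -0.0052 ± 0.0271 (adjusted p = 0.97). The call of Stim1 therefore rests on 1 of its 3 probe sets, while a second has the same size and direction. The call also held in only 5 of 14 fits that left out 1 array. It was lost without any 1 of A-CRF 3, A-CRF 5, A-CRF 6, A-CRF 8, Control 1, Control 3, Control 4, Control 5 or Control 6 (highest adjusted p = 0.089), and with an exact rank-sum test (0.087), the white adipocyte mean as a covariate (0.10) or a clock gene score as a covariate (0.12). The difference itself stayed between -0.25 and -0.20 in the fits without 1 array, and was -0.20 with either covariate. It was smaller, -0.15, for the mean of all 3 probe sets, 1 of them below the floor bound (limma adjusted p = 0.027).

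Stim2, the paralogue that reacts to smaller falls in store calcium, ran from 6.09 over a median of 6.17 to 6.31 in A-CRF. In Control it ran from 6.23 over 6.32 to 6.42, and 6 of 8 A-CRF arrays lay below the control range. Its difference of -0.15 ± 0.04 log2 units (SE, interval -0.24 to -0.07) did not pass the limma threshold (adjusted p = 0.055). It passed in 5 of 13 alternative analyses and in 2 of 14 fits that left out 1 array. The direction was negative in each of these fits. Whether Stim1 changed more than Stim2 was asked with their difference on each array. That difference moved by -0.07 log2 units between groups, within the spread between arrays (exact permutation test, two-sided, p = 0.14, adjusted p = 0.24 over 7 pairs within families).

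Transcript start regions from RefSeq (build GRCr8) were at hand for 6 of the 8 genes. The stretches below are shown for the STIM pair only, of which Stim1 passed and Stim2 did not. Both had negative differences, but so did Orai3 and Trpc6 among the other genes with a region. Capitals mark the GC box letters GGGCGG, on either strand, and the EGR motif GCGGGGGCG, searched in the 250 bases before the annotated transcript start. The EGR motif was chosen after the Stim1 sequence had been seen.
Stim1, GC box, chr1:166067964-166067993, plus strand: cgccctcCCGCCCtcccgggagccgctgtc
Stim1, EGR motif, chr1:166068051-166068080, plus strand: tacgggacccgGCGGGGGCGctgacctcgg
Stim2, GC box, chr14:61217219-61217248, minus strand: gccggccggaggGGGCGGggggatgcgccg

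The GC box was found in 30.5% of 33469 such windows and the EGR motif in 2.45%. In these searches no capital stretch belongs to more than 1 motif. The start used for Stim1 lies 764 bases inside the span of the gene and that of Stim2 201 bases inside, so the annotated gene begins further upstream. Both windows were rich in G and C, 72.0% for Stim1 and 72.4% for Stim2, against a median of 51.2% over all windows. The NFAT core GGAAA, found in 56.9% of windows on either strand, and the E-box CACGTG, found in 5.59%, were in neither. Orai1 had 2 GC boxes in its window, and Orai3 and Trpc6 had none of these 4 motifs. The Trpc4 window held 1 NFAT core, but its annotated start lies 43455 bases inside the gene span and its sequence is not shown. A match is a run of letters, and binding was not measured here.

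The ORAI subunits, which form the pore, gave no call. Orai1, the main pore subunit of store-operated entry, lay between 5.65 and 6.10 in A-CRF with a median of 5.71, and between 5.63 and 5.89 in Control with a median of 5.73. The groups overlapped over most of their range, and the difference was 0.01 ± 0.07 (SE, interval -0.13 to 0.16, limma adjusted p = 0.97). Its 4 highest values were on A-CRF 4 (6.10), Control 1 (5.89), A-CRF 1 (5.88) and Control 4 (5.87), and 3 of these are the arrays with the large GAPDH difference. Without those 3 arrays the difference was -0.03 (adjusted p = 0.80), so the sign turned and no call was gained.

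For Orai2 the 2 probe sets differed. The one that represents the gene, 1379159_at, ran from 5.96 to 6.11 in A-CRF and from 6.05 to 6.12 in Control, a difference of -0.02 ± 0.02 (SE, interval -0.07 to 0.03, adjusted p = 0.82). The dimmer one, 1377955_at, was below the floor bound, with 5.53 ± 0.08 (SD, n = 8) in A-CRF against 5.43 ± 0.01 (SD, n = 6). On it 7 of 8 A-CRF arrays lay above the control range of 5.41 to 5.44, and the difference of 0.10 ± 0.03 (SE) did not pass (limma adjusted p = 0.12). The mean of both probe sets gave 0.04 (adjusted p = 0.35).

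Orai3 ran from 5.83 over a median of 5.90 to 6.08 in A-CRF and from 5.93 over 5.98 to 6.06 in Control. On 6 of 8 A-CRF arrays it was below the control range and on A-CRF 4 above it. Its difference of -0.07 ± 0.03 (SE, interval -0.15 to -0.00070) had an adjusted p of 0.34 in limma. Among the 3 ORAI pairs no difference of differences passed (exact permutation tests, two-sided, adjusted p of 0.68 for Orai1 minus Orai2, 0.25 for Orai1 minus Orai3 and 0.26 for Orai2 minus Orai3).

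**Figure D2:**
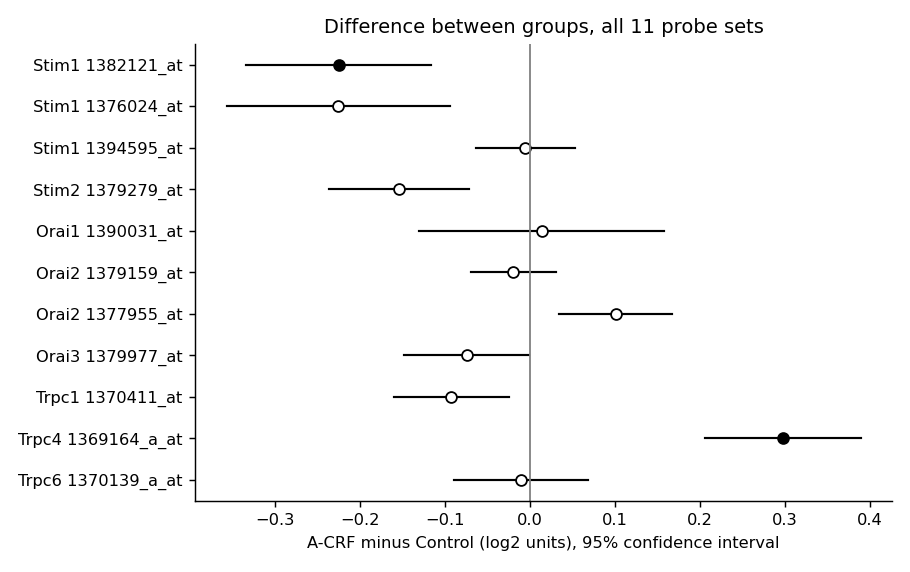
Differences A-CRF minus Control in log2 units (horizontal axis) for all 11 probe sets of the 8 genes, with 95% confidence intervals from limma; filled points passed an adjusted p of 0.05. Trpc4 at 0.30 and 1 Stim1 probe set at -0.22 passed, and the other Stim1 probe sets lay at -0.23 and -0.0052.

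Among the TRPC channels Trpc4, a receptor-operated channel of smooth muscle and endothelium, had the clearest difference. In A-CRF its lowest value was 5.53, its median 5.63 and its highest 5.79. In Control the lowest was 5.27, the median 5.33 and the highest 5.43. Every A-CRF array lay above every control array, as was the case in one direction or the other for 1.99% of named genes. The mean rose from 5.34 ± 0.07 (SD, n = 6) to 5.64 ± 0.09 (SD, n = 8), a difference of 0.30 ± 0.04 log2 units (SE, interval 0.21 to 0.39, limma adjusted p = 0.0051).

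Both group means of Trpc4 were below the floor bound, 0.52 and 0.82 log2 units above the lowest value in the table. The 6 olfactory receptor probe sets, whose genes have no known role in aorta, had means up to 5.30. Each A-CRF array of Trpc4 was above that level. So were Control 1 (5.34), Control 2 (5.43), Control 3 (5.40) and, barely, Control 4 (5.31), while Control 5 (5.28) and Control 6 (5.27) were below it. The Trpc4 control mean of 5.34 is thus near background by this measure, only slightly above the highest olfactory receptor mean. The call held in each of 14 fits that left out 1 array (highest adjusted p = 0.018) and in each of the 12 alternatives that measured the gene (highest 0.048, with the exact rank-sum test). Its only probe set can match several transcripts of the gene, so it was not measured where such probe sets were left out.

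Trpc1, a widely expressed subunit that joins other TRPC proteins in mixed channels, ran from 6.19 over a median of 6.24 to 6.32 in A-CRF and from 6.26 over 6.29 to 6.46 in Control. On 7 of 8 A-CRF arrays it was below the control range, A-CRF 8 being the exception, and the difference of -0.09 ± 0.03 (SE, interval -0.16 to -0.02) did not pass (limma adjusted p = 0.16). Trpc6, a channel opened by diacylglycerol, ran from 5.16 over 5.20 to 5.38 in A-CRF and from 5.15 over 5.27 to 5.30 in Control. The ranges largely coincided, with a difference of -0.01 ± 0.04 (SE, interval -0.09 to 0.07, adjusted p = 0.96). At 0.43 log2 units above the lowest value in Control, and with a mean under the highest olfactory receptor mean, Trpc6 was not above background by this measure, so a difference in it may not be detectable on this array.

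Trpc1 minus Trpc4 shifted by -0.39 log2 units between the groups (exact permutation test, two-sided, p = 0.00033, the smallest it can give with 3003 assignments; adjusted p = 0.0012 over 7 pairs). This pair holds the called gene Trpc4, whose own difference of 0.30 makes up most of the shift. The limit given for Trpc4, a control level near background, holds for this pair too. The pairs with Trpc6 are not read, because its probe set was not above background.

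**Figure D3:**
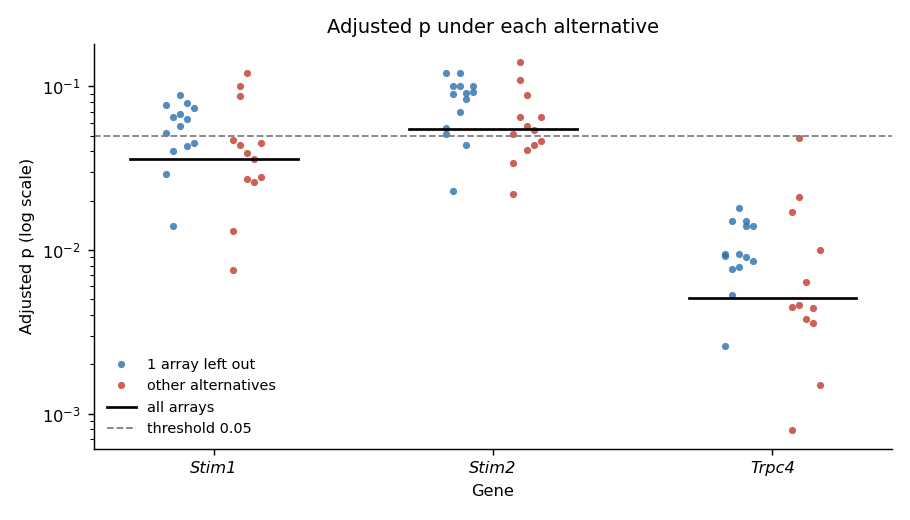
Adjusted p (vertical axis, log scale) of Stim1, Stim2 and Trpc4 with all arrays (black line), in 14 fits that left out 1 array (blue) and in the other alternatives (red). All Trpc4 points lie under 0.05 (dashed line), while those of Stim1 and Stim2 fall on both sides of it.

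Within groups the 8 genes did not vary as one block. Over deviations from the group means on 14 arrays, the 28 pairs had a median Pearson correlation of 0.06, 4 pairs were above 0.5 and 3 below -0.5. The most negative pair was Stim1 with Trpc4, at -0.82 (Spearman -0.75, and -0.68 without A-CRF 2 and A-CRF 7, the arrays farthest out in Stim1). With the second Stim1 probe set, 1376024_at, the correlation was -0.43, and 0.33 without the same arrays. The negative relation of this second probe set thus rests on A-CRF 2 and A-CRF 7, and the strong one belongs to 1 probe set. Stim1 and Stim2 had a correlation of 0.58, and 0.38 without those arrays. The 2 brighter Stim1 probe sets had a correlation of 0.73, which fell to 0.14 without them, so their agreement from array to array rests on A-CRF 2 and A-CRF 7. Trpc4 and Trpc6, both below the floor bound, had a correlation of 0.69, and 0.49 without A-CRF 2 and A-CRF 3. These are descriptions over few arrays that share tissue and processing, and no p was computed.

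**Figure D4:**
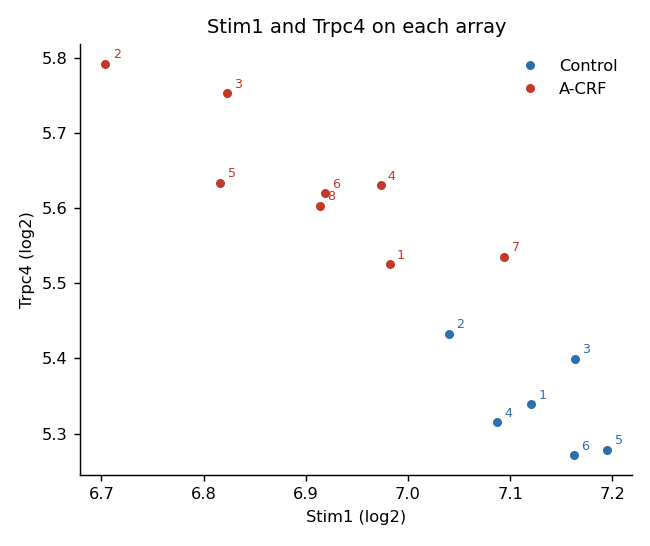
Stim1 (horizontal axis, log2) against Trpc4 (vertical axis, log2) on each of the 14 arrays, with replicate numbers beside the points. A-CRF arrays sit at higher Trpc4 than all Control arrays, and A-CRF 2 has the lowest Stim1 value (6.70) and the highest Trpc4 value (5.79).

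The genes around these channels were taken from 6 lists of 66 measured genes. Of these 2 were higher, 2 were lower and 62 did not pass, with a median difference of -0.01 log2 units. In Control 46 of the 66 were above the floor bound, and a difference in the rest may be hard to detect. Among all named genes 1.93% were higher and 1.06% lower by the same test, and 1.99% had groups that did not overlap. Among 18 genes from receptor to phospholipase C, 0 were higher and 1 was lower (list median -0.02). Plcb1, 1 of the phospholipase C beta isoforms that act downstream of Gq-coupled receptors, fell by 0.48 ± 0.07 log2 units (SE, limma adjusted p = 0.0051). Its values were 6.01 to 6.45 in A-CRF (median 6.24) and 6.59 to 6.82 in Control (median 6.73), with no overlap. The other beta isoform genes Plcb4 (-0.25, adjusted p = 0.13), Plcb3 (-0.09, 0.57) and Plcb2 (-0.03, 0.71) and the IP3 receptor gene Itpr1 (-0.04, 0.90) did not pass. Of these Plcb2 was below the floor bound in both groups. The call of Plcb1 held in each of 14 fits without 1 array (highest adjusted p = 0.018) and in all 13 other alternatives (highest 0.048).

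Among 10 measured TRPC partners, 1 was higher and 1 lower (list median -0.06). Cav3, the muscle caveolin, rose by 0.38 ± 0.06 log2 units (SE, limma adjusted p = 0.0054), from 5.61 to 5.76 in Control to 5.83 to 6.24 in A-CRF, with no overlap. Its control mean of 5.67 was below the floor bound and its A-CRF mean of 6.06 above it. Fkbp4, an immunophilin reported to bind TRPC channels, fell by 0.34 ± 0.08 (adjusted p = 0.032), with 5 of 8 A-CRF arrays below the control range of 5.99 to 6.49. Cav1, the main caveolin of the vessel wall, had a difference of -0.09 ± 0.08 (adjusted p = 0.73). The call of Cav3 held in all 14 fits without 1 array and in 13 other alternatives (highest adjusted p = 0.048), and that of Fkbp4 was lost without A-CRF 5, A-CRF 8, Control 1, Control 2, Control 3, Control 4 or Control 5 (highest 0.069), without A-CRF 1, A-CRF 4 and Control 1 together, with the exact rank-sum test (0.11) and with the clock score as a covariate.

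Of 14 STIM and ORAI regulators 1 was higher and 0 were lower (list median -0.06). Pdia3, a thiol isomerase of the endoplasmic reticulum that can act on STIM1, rose by 0.21 ± 0.04 log2 units (SE, limma adjusted p = 0.015), with 7 of 8 A-CRF arrays above the control range of 9.80 to 9.90. Its second probe set had a difference of 0.02 (adjusted p = 0.86). The call of Pdia3 was lost in 3 of 13 alternatives, with a trended and robust variance model, the exact rank-sum test and the clock score as a covariate (highest adjusted p = 0.087). Saraf, which turns store-operated entry off (-0.20 ± 0.05, adjusted p = 0.076), and Stimate, which helps STIM1 reach the plasma membrane (-0.13 ± 0.04, adjusted p = 0.072), did not pass.

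None of 14 calcineurin and NFAT genes passed (list median -0.0082). The largest differences were 0.85 ± 0.30 for the calcineurin inhibitor Rcan1 (SE, limma adjusted p = 0.18), with group ranges of 7.53 to 8.89 in A-CRF and 6.70 to 8.30 in Control that overlapped, and -0.23 ± 0.07 for Cabin1 (adjusted p = 0.095). Of 8 other cation channel genes none passed (list median 0.0065), with Trpm7 at 0.12 ± 0.11 (adjusted p = 0.72) and Pkd1 at -0.10 ± 0.12 (adjusted p = 0.81). The relatives Trpc2 and Trpc5 were below the floor bound in both groups, with differences of 0.03 and 0.00031 (adjusted p = 0.81 and 1).

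**Figure D5:**
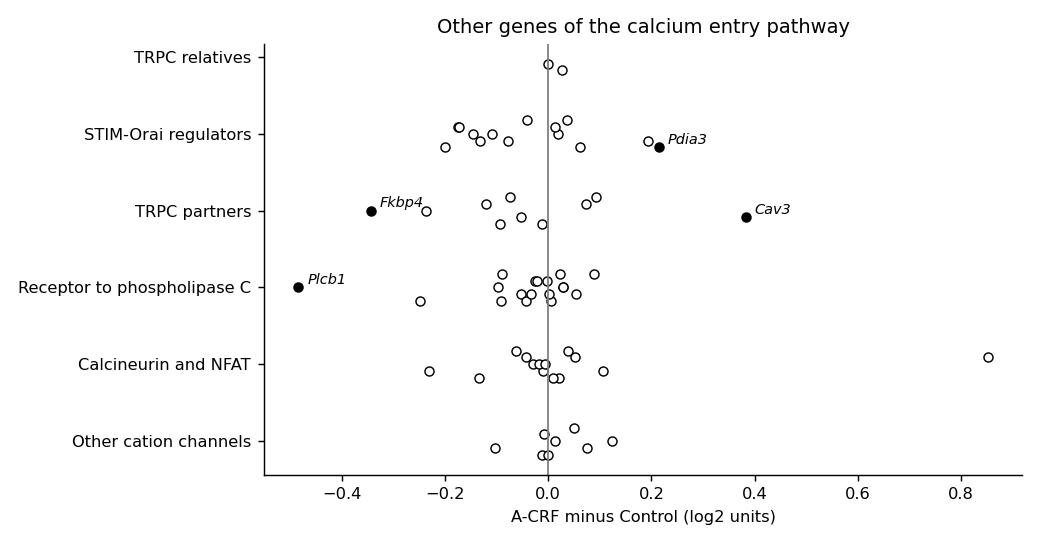
Differences A-CRF minus Control in log2 units (horizontal axis) for 66 genes of 6 lists around the calcium entry channels, 1 point per gene; filled, named points passed an adjusted p of 0.05. Plcb1 (-0.48) and Fkbp4 (-0.34) lie on the lower side, Cav3 (0.38) and Pdia3 (0.21) on the higher side, and the open point at 0.85 is Rcan1.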

How the data were processed

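The authors deposited 1 log2 value per probe set and array. PLIER is named without a version in the submitters' processing notes, and neither the background correction nor the normalization or an offset is stated in the labels. The log base was inferred from the range of values, 4.82 to 12.64, so log2 differences hold only for that base, and an added offset would shrink changes of dim probe sets such as Trpc4.

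After 57 control probe sets were left out, the groups were compared on 31042 probe sets with limma 3.58.1 in R 4.3.3 (lmFit and eBayes, group as the only factor, two-sided), with Benjamini-Hochberg adjustment over all of them and a threshold of 0.05. The fit was tested on simulated data. The number of arrays, 8 and 6, limits the precision. In the array annotation 20826 probe sets have 1 symbol, 436 have several and 9780 have none.

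The members, lists and tests were chosen with earlier results of these data known. Named genes were all members, and from each of 6 lists those past the threshold or, where none passed, the 2 with the largest difference; others named were chosen after their values were seen. Marker lists numbered 13, and those with no result in the text are given under the other observations. Alternatives were normalization, offset, filter, variance model, weights, test, probe set choice, 3 covariates and arrays left out.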

Additional observations from a re-analysis of the deposited data

Results flagged for a closer look

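Of 22 groups of values checked (11 probe sets in A-CRF and in Control), 2 held a value that stood far apart, where chance gives about 1 in 20. Stim1 probe set 1376024_at was at 7.19 on Control 3, against 6.97 to 7.04 on the other control arrays. Trpc1 was at 6.32 on A-CRF 8, against 6.19 to 6.24 on the other A-CRF arrays, and without that array its difference was -0.10 (limma adjusted p = 0.11).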

How the results depend on the processing

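Trpc4 passed in each analysis that measured it. The count of 2 members called was 1 with an exact rank-sum test, with the white adipocyte mean or the clock score as a covariate (Trpc4 in these), and without the probe sets that can match several transcripts (Stim1). It ranged from 1 to 3 when 1 array was left out. The 4 calls among the 66 surrounding genes became 8 with array weights, 9 with the GAPDH difference as a covariate, 7 without A-CRF 1, A-CRF 4 and Control 1, 2 with the rank-sum test and 2 with the clock score. They ranged from 3 to 8 with 1 array left out, 8 being without A-CRF 1. No call changed sign in any alternative. The pairs within families that are read here and the counts above the floor kept their side of the threshold or stayed within 1.5 times in the alternatives run. No paired analysis was possible because the sample titles share no numbers between the groups. Array names such as A-CRF 1 and Control 1 only give the order of samples within a group and do not pair them. Signal over background limits Orai1, Trpc4 and Trpc6.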

Other observations

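Among named genes above the floor bound, those whose deviations from the group means were most like those of Stim1 over 14 arrays were Usp19 (Pearson 0.92), Ndrg3 (0.92) and Mrpl28 (0.91). For Trpc4 they were Ctrb1 (0.88), Dyrk2 (0.83) and Ptpn2 (0.79). They were the highest of 8150 and 8151 genes searched, and no p was computed. Each search used only the probe set that represents the gene, 1382121_at for Stim1. The other Stim1 probe sets were not searched, and the Trpc4 probe set was below the floor bound.

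On the 3 A-CRF arrays with a high clock score, A-CRF 6, A-CRF 7 and A-CRF 8, Plcb1 was 6.30, 6.40 and 6.45, and it was 6.01 to 6.24 on the remaining 5. Rcan1 was 7.63, 7.59 and 7.53 on those 3 arrays and 7.83 to 8.89 on the others. Trpc4 was 5.62, 5.54 and 5.60 there, inside the range of the remaining 5. In Control the lowest clock scores were those of Control 1 (-0.0035) and Control 6 (0.41). On them Rcan1 was 7.22 and 6.70, not higher than on the other control arrays, where it was 6.78 to 8.30. Plcb1 was 6.60 and 6.59 on them and 6.72 to 6.82 on the other control arrays. A relation of these genes to the clock score was not tested.

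Other marker lists, as means over the list, overlapped between the groups. They ran from 5.78 to 7.18 in A-CRF and from 6.23 to 7.30 in Control for brown adipocytes (0 of 6 passed). For adventitial fibroblasts they were 9.14 to 9.40 and 9.01 to 9.20 (0 of 7), for skeletal muscle 6.52 to 6.86 and 6.65 to 6.85 (1 of 5, Ckm, lower), for cardiac muscle 5.57 to 5.66 and 5.61 to 5.74 (0 of 5) and for Schwann cells 5.69 to 6.15 and 5.74 to 5.95 (0 of 3). T cell means were 5.53 to 5.67 and 5.54 to 5.61, and no T cell, B cell, mast cell or neutrophil marker passed.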
